A study of Sus scrofa with 22 samples.

Results

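Glycolysis and the genes that low oxygen induces were followed in pig foliate papillae, the taste-bud-bearing folds at the side of the tongue, and in organoids grown from them. The set held 40 named genes: 17 glycolytic enzymes, 6 glucose and lactate carriers and glycolytic regulators, 16 targets of hypoxia-inducible factor (HIF) outside glycolysis, and HIF1A itself. They were chosen by name, as genes known for these roles, but with earlier results of these data known. They stood among 27376 annotated genes, or 29850 in the CQ experiment. All 40 were found in the files and all 40 passed the filter on low counts in each comparison.

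The study sequenced RNA from 22 libraries in 6 groups. Papillae of pigs 1 to 5 (n = 5) stood beside organoids at passage 1 (n = 5) labelled with the same pig numbers. Organoids in the growth medium LPM (n = 3) stood beside organoids in LPM without FGF10 (n = 3), and another LPM group (n = 3) stood beside CQ (n = 3), in which cultures moved from LPM to CQ at day 10 and stayed there to day 16 or 17. Per the labels of the passage 1 organoids and the FGF10 experiment, LPM contained insulin at 10 nM and 1 µM forskolin. It also held 3 growth factors (100 ng/ml FGF10, 50 ng/ml EGF and 10 ng/ml FGF2), Wnt, R-spondin, noggin and SHH proteins and several kinase inhibitors. For the LPM libraries beside CQ these concentrations are not given. The labels give no genotype, strain or age of the pigs, no oxygen tension, no glucose concentration, no composition of CQ and no culture day for the LPM libraries beside CQ, so culture age and medium cannot be told apart there. The labels do not say which pigs gave the LPM and CQ organoids or whether the 3 libraries of a group came from separate animals, and p-values for those groups measure only the spread between these libraries.

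Glycolysis turns glucose into pyruvate in the cytosol, and lactate dehydrogenase then turns pyruvate into lactate, which leaves the cell through a carrier. When oxygen is scarce, the prolyl hydroxylases that mark HIF-1α for destruction slow down, and the stabilised factor raises transcription of glucose transporters, most glycolytic enzymes and genes for blood vessel growth, pH control and mitochondrial turnover. Several of these genes also respond to growth factors, insulin and glucose supply, and HIF-1α is regulated largely at the protein level, which RNA does not show.

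Library totals were 17.04 to 20.71 M counted read pairs for papillae, 21.79 to 27.77 M for passage 1 organoids, 19.64 to 25.23 M in the FGF10 experiment, 19.62 to 26.01 M for LPM beside CQ and 14.67 to 16.0 M for CQ. CQ libraries had 14014 to 16005 genes with a count, against 17489 to 17920 for the LPM libraries beside them. Levels are given as CPM (counts per M counts), each count as its share of the library total after TMM scaling within the comparison, and a gene was called when edgeR's Benjamini-Hochberg adjusted p was under 0.05. Summed markers of fibroblasts were 1850 to 6900 CPM in papillae and 0.779 to 3.12 CPM in passage 1 organoids, and those of gland 47000 to 246000 and 1.08 to 1.67 CPM. Summed markers of endothelium and pericytes were 389 to 566 CPM in papillae and 21 to 114 CPM in organoids, where KDR, a receptor of VEGFA, made up nearly all of the sum (25.9 ± 2.44 and 47.4 ± 36.8 CPM, not called) and the other 7 markers had means of at most 2.40 CPM. The labels call the cells stem and mature taste cells. GNAT3, the taste G protein, lay at 0 to 5.34 CPM in papillae and 1.37 to 3.5 CPM in passage 1 organoids. The taste signalling genes PLCB2 (7.62 to 33.9 and 0.529 to 2.66 CPM) and TRPM5 (6.99 to 33.7 and 1.38 to 3.12 CPM) were lower in organoids than in papillae without overlap. The taste receptor TAS1R3 lay at 42.9 to 71.4 CPM in papillae and 26.8 to 44.0 CPM in organoids. The progenitor gene SOX2 went the other way without overlap, at 51.2 to 68.5 CPM in papillae and 204 to 534 CPM in organoids. LGR6 lay at 10.4 to 26.2 and 10.4 to 219 CPM, and LGR5, PKD2L1 and KCNJ1 at no more than 3.64 CPM in either group. In the CQ experiment, GNAT3 lay at 0.231 to 0.612 CPM in LPM and had 0 counts in CQ. TAS1R3 overlapped there, at 15.7 to 22.5 CPM in LPM and 16.8 to 22.9 CPM in CQ. SOX2 (167 to 205 and 56.2 to 69.9 CPM) and LGR6 (12.2 to 14.3 and 3.48 to 5.48 CPM) were lower in CQ without overlap. Values of these taste genes are shares of the plain library total, without TMM scaling. Of the epithelial markers, EPCAM, CDH1 and KRT8 were higher in passage 1 organoids (3.65-fold, 2.85-fold and 6.33-fold), as most of the set was, and KRT5, the most abundant in papillae, was 4.83-fold lower, so that their sum was 7620 to 10500 CPM in papillae and 4920 to 6840 CPM in organoids. The part of the other cell types in the results was not tested. Papillae and organoids were extracted with different kits, so the kit and the contrast of tissue with culture cannot be told apart.

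Passage 1 organoids held more RNA of nearly the whole set than the papillae. Of the 40 genes, 36 were called higher in organoids and 0 lower (0 lower also at an unadjusted p under 0.05, with DESeq2 and with limma-voom), with 32 at 2-fold or more, while 32.4% of all 16311 genes tested were called higher and 35.1% lower. The median log2 fold change was 1.73 over the 40 genes and -0.01 over all genes tested. Of all genes called, 48% were higher; with libraries scaled by their total alone, that share was 59.6%, the median of all genes 0.28 and the count of the set 38 of 40. For 29 of the 40 the 5 organoid libraries did not overlap the 5 papilla libraries, as was so for 54.1% of all genes tested. The 17 enzymes (15 higher, median 1.82), the 6 carriers and regulators (5 higher, median 1.85) and the 16 HIF targets outside glycolysis (15 higher, median 1.53) had similar medians, but the targets ranged further, from 0.66 to 5.45 against -0.35 to 2.87 for enzymes. In bulk RNA, fewer cells of a type and less RNA per cell cannot be told apart.

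**Figure D1:**
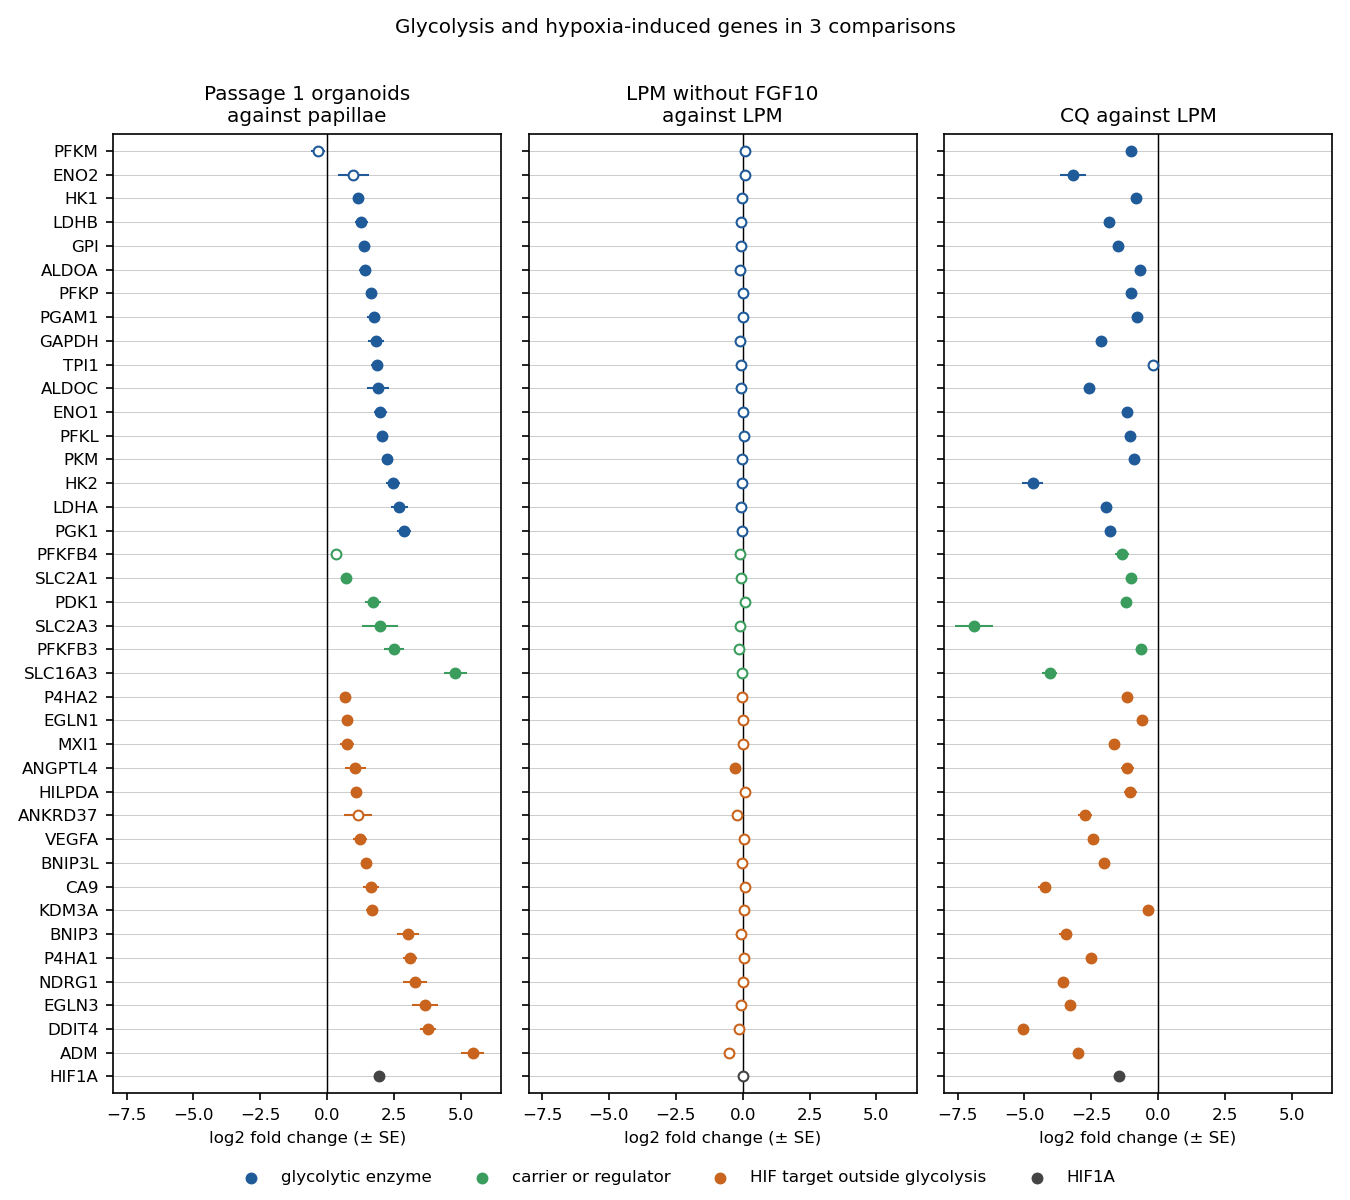
Log2 fold change of each of the 40 genes in the 3 comparisons (points, with an approximate standard error as bars; filled points have an adjusted p under 0.05). Genes are coloured by class and ordered by their change from papillae to passage 1 organoids. Of the 40 genes, 36 are called higher in organoids than in papillae, 1 is called lower without FGF10 and 39 are called lower in CQ than in LPM.

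HIF1A (chr1:190625436-190673926 in Sscrofa11.1), which encodes the oxygen-regulated subunit of the factor, stood at 59.4, 55.7, 40.8, 46.6 and 55.6 CPM in the papillae of pigs 1 to 5 and at 229, 165, 237, 148 and 202 CPM in the organoids of those pigs. Every organoid library was above every papilla, with a fold change of 3.80 (log2 1.93 ± 0.17, SE; adjusted p = 2.18e-06). The hydroxylase EGLN3, which HIF itself induces and which marks HIF-α for degradation, stood at 97.2, 71.8, 66.7, 42.7 and 52.3 CPM in papillae and 1221, 251, 978, 343 and 1348 CPM in organoids. The libraries did not overlap, and organoids of pigs 1, 3 and 5 were far above those of pigs 2 and 4 (log2 3.65 ± 0.49, adjusted p = 5.15e-05). EGLN1, the main oxygen-sensing hydroxylase, rose less, from 85.7 ± 9.91 (SD) to 143 ± 44.8 CPM, and the groups overlapped.

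Of the glucose transporters, SLC2A1 rose by less than SLC2A3 but more evenly. SLC2A1 (GLUT1), the widely expressed transporter, was at 225, 272, 216, 246 and 235 CPM in papillae and 410.3, 238, 359, 363 and 568 CPM in organoids. It rose 1.62-fold (log2 0.70 ± 0.20, adjusted p = 0.00899), and the organoids of pig 2 lay within the range of the papillae. SLC2A3 (GLUT3), a high-affinity transporter, went from 9.16 ± 1.36 to 36.0 ± 39.5 CPM (SD, n = 5 each), a spread set by the organoids of pig 5 at 102 CPM and pig 2 at 3.85 CPM. Its log2 change of 1.98 (adjusted p = 0.0237) was 1.1 without the organoids of pig 5 (adjusted p = 0.0918), and its call was also lost without the papilla of pig 3 (adjusted p = 0.0514) with the pigs as a block (1.23, adjusted p = 0.137) and with limma-voom (1.2, adjusted p = 0.254).

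Hexokinase traps glucose by phosphorylation, and the inducible form HK2 rose more than the housekeeping form HK1. HK2 stood at 15.8, 19.3, 12.8, 14.6 and 12.9 CPM in papillae and at 89.4, 40.9, 78.0, 72.1 and 135 CPM in organoids. All organoids were above all papillae, and the fold change was 5.51 (log2 2.46 ± 0.28, adjusted p = 1.39e-05). HK1 rose from 137 ± 9.47 to 307 ± 92.0 CPM, 2.24-fold. Of the phosphofructokinases, which commit glucose to glycolysis, PFKL rose 4.10-fold to 410.2 CPM and PFKP 3.08-fold to 325 CPM. PFKM, the form of skeletal muscle, was not called: it lay at 38.4, 29.5, 80.7, 40.8 and 56.2 CPM in papillae and 32.8, 32.5, 31.9, 39.7 and 55.4 CPM in organoids (log2 -0.35, adjusted p = 0.256). The papilla of pig 3, highest for PFKM, also had the highest summed skeletal muscle markers of all papillae, 9680 CPM against a lowest of 332, while organoids had 2.20 to 4.26 CPM and 0 counts of MYH1, MYH2 and MYH4. Without that papilla the log2 change of PFKM was -0.10 (adjusted p = 0.722). PFKFB3, whose product activates phosphofructokinase through fructose 2,6-bisphosphate, rose 5.61-fold from 17.9 ± 4.07 to 101 ± 67.6 CPM, whereas its relative PFKFB4 was at 18.3 ± 4.06 and 23.2 ± 5.86 CPM and was not called (adjusted p = 0.172; 0.0303 with libraries scaled by their total alone).

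The enzymes of the middle and lower pathway all rose apart from ENO2. Fold changes were 2.62 for the isomerase GPI, 2.66 and 3.71 for the aldolases ALDOA and ALDOC, and 3.65 for the triose phosphate isomerase TPI1. They were 3.54 for the dehydrogenase GAPDH, 7.31 for the ATP-forming kinase PGK1, the largest rise among the 17 enzymes, and 3.35 for the mutase PGAM1. The enolase ENO1 rose 3.96-fold to 1976 CPM. The neuronal enolase ENO2 was spread from 2.42 to 43.1 CPM among organoids and was not called (log2 0.97, adjusted p = 0.162), but was called without the organoids of pig 4 (1.28, adjusted p = 0.0126). PKM, pyruvate kinase, stood at 515, 647, 685, 499 and 515 CPM in papillae and 2364, 2114, 2532, 2947 and 3689 CPM in organoids. Every organoid library was above every papilla, with a fold of 4.77 (log2 2.25 ± 0.20, adjusted p = 2.74e-06).

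Genes of lactate formation and export rose at each step measured. LDHA, the form that favours lactate formation, was at 118, 145, 258, 144 and 148 CPM in papillae, highest again in pig 3, and at 891, 715, 807, 1106 and 1777 CPM in organoids. The groups did not overlap and the fold was 6.51 (log2 2.7 ± 0.30, adjusted p = 1.34e-05). LDHB, the form typical of oxidative tissue, was at 144, 124, 112, 116 and 151 CPM in papillae and 183, 343, 216, 480.1 and 351 CPM in organoids, also without overlap and with a smaller fold of 2.43 (adjusted p = 0.000675). LDHB was read from the gene of 8 merged exons on chromosome 5 (chr5:51810932-51831218), because the row that carries the plain symbol in these files is a single-exon locus on chromosome 2. In the CQ experiment the files hold 1 LDHB row that merges both loci, and its counts were used there; for shares the counts of both rows were summed in every experiment and divided by the length of the chromosome 5 gene. The lactate exporter SLC16A3 (MCT4; chr12:796882-807480) stood at 2.60, 6.11, 11.7, 5.92 and 6.03 CPM in papillae and 156, 87.8, 160.2, 182 and 308 CPM in organoids. Its rise of 27.5-fold (log2 4.78 ± 0.43, adjusted p = 3.03e-06) was the second largest of the set. PDK1, which inactivates pyruvate dehydrogenase, rose 3.28-fold, from 27.0 ± 5.45 to 88.6 ± 44.7 CPM.

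Among HIF targets outside glycolysis, ADM (adrenomedullin, a vasodilator peptide; chr2:49229223-49231521) changed most. It was at 2.47, 3.01, 4.16, 3.69 and 2.95 CPM in papillae and 97.9, 114, 124, 68.7 and 308 CPM in organoids. The lowest organoid library was well above the highest papilla, and the fold of 43.6 (log2 5.45 ± 0.43, adjusted p = 1.08e-06) was the largest of the 40. VEGFA, the main vessel growth factor, was at 128, 132, 160.1, 200.3 and 175 CPM in papillae and 324, 250.3, 447, 231 and 593 CPM in organoids, a 2.32-fold rise without overlap (adjusted p = 0.00159). CA9, a surface carbonic anhydrase, was at 14.2, 18.1, 19, 22.8 and 15.4 CPM in papillae and 51.2, 29.2, 38.0, 60.2 and 98.2 CPM in organoids, 3.09-fold higher and also without overlap (adjusted p = 0.000467).

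DDIT4 (REDD1), an inhibitor of the growth kinase mTORC1, stood at 70.8, 43.6, 79.3, 69.3 and 55.3 CPM in papillae and 811, 686, 669, 664 and 1493 CPM in organoids. The organoids of pig 5 were highest, and the other organoid libraries lay close together (13.6-fold, log2 3.76 ± 0.29, adjusted p = 8.93e-07). NDRG1, a stress-responsive gene of epithelia, went from 122 ± 16.8 to 1197 ± 761 CPM (9.80-fold). The mitophagy receptors BNIP3 and BNIP3L rose 8.15-fold and 2.71-fold. P4HA1, a subunit of collagen prolyl hydroxylase, rose 8.49-fold and its paralog P4HA2 1.58-fold. The histone demethylase KDM3A rose 3.17-fold, the lipid droplet protein HILPDA 2.09-fold, the MAX partner MXI1 1.68-fold and the lipase inhibitor ANGPTL4 2.07-fold. MXI1 and ANGPTL4 were not called without the organoids of pig 5 (adjusted p = 0.0559 and 0.0848) or with limma-voom (0.0637 and 0.0922). ANGPTL4 was also not called with the pigs as a block (adjusted p = 0.108) or without the papilla of pig 1, 2 or 5 or the organoids of pig 4 (0.0507 to 0.0665). ANKRD37 was at 6.61, 6.67, 8.57, 11.3 and 7.37 CPM in papillae and 6.23, 8.20, 9.46, 13.8 and 52.0 CPM in organoids. It was not called (log2 1.15, adjusted p = 0.0779), and its log2 change was 0.23 without the organoids of pig 5 (adjusted p = 0.455). It was called without the organoids of pig 1 (1.38, adjusted p = 0.0327) or pig 2 (1.35, adjusted p = 0.049) and with libraries scaled by their total alone (1.43, adjusted p = 0.0323).

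**Figure D2:**
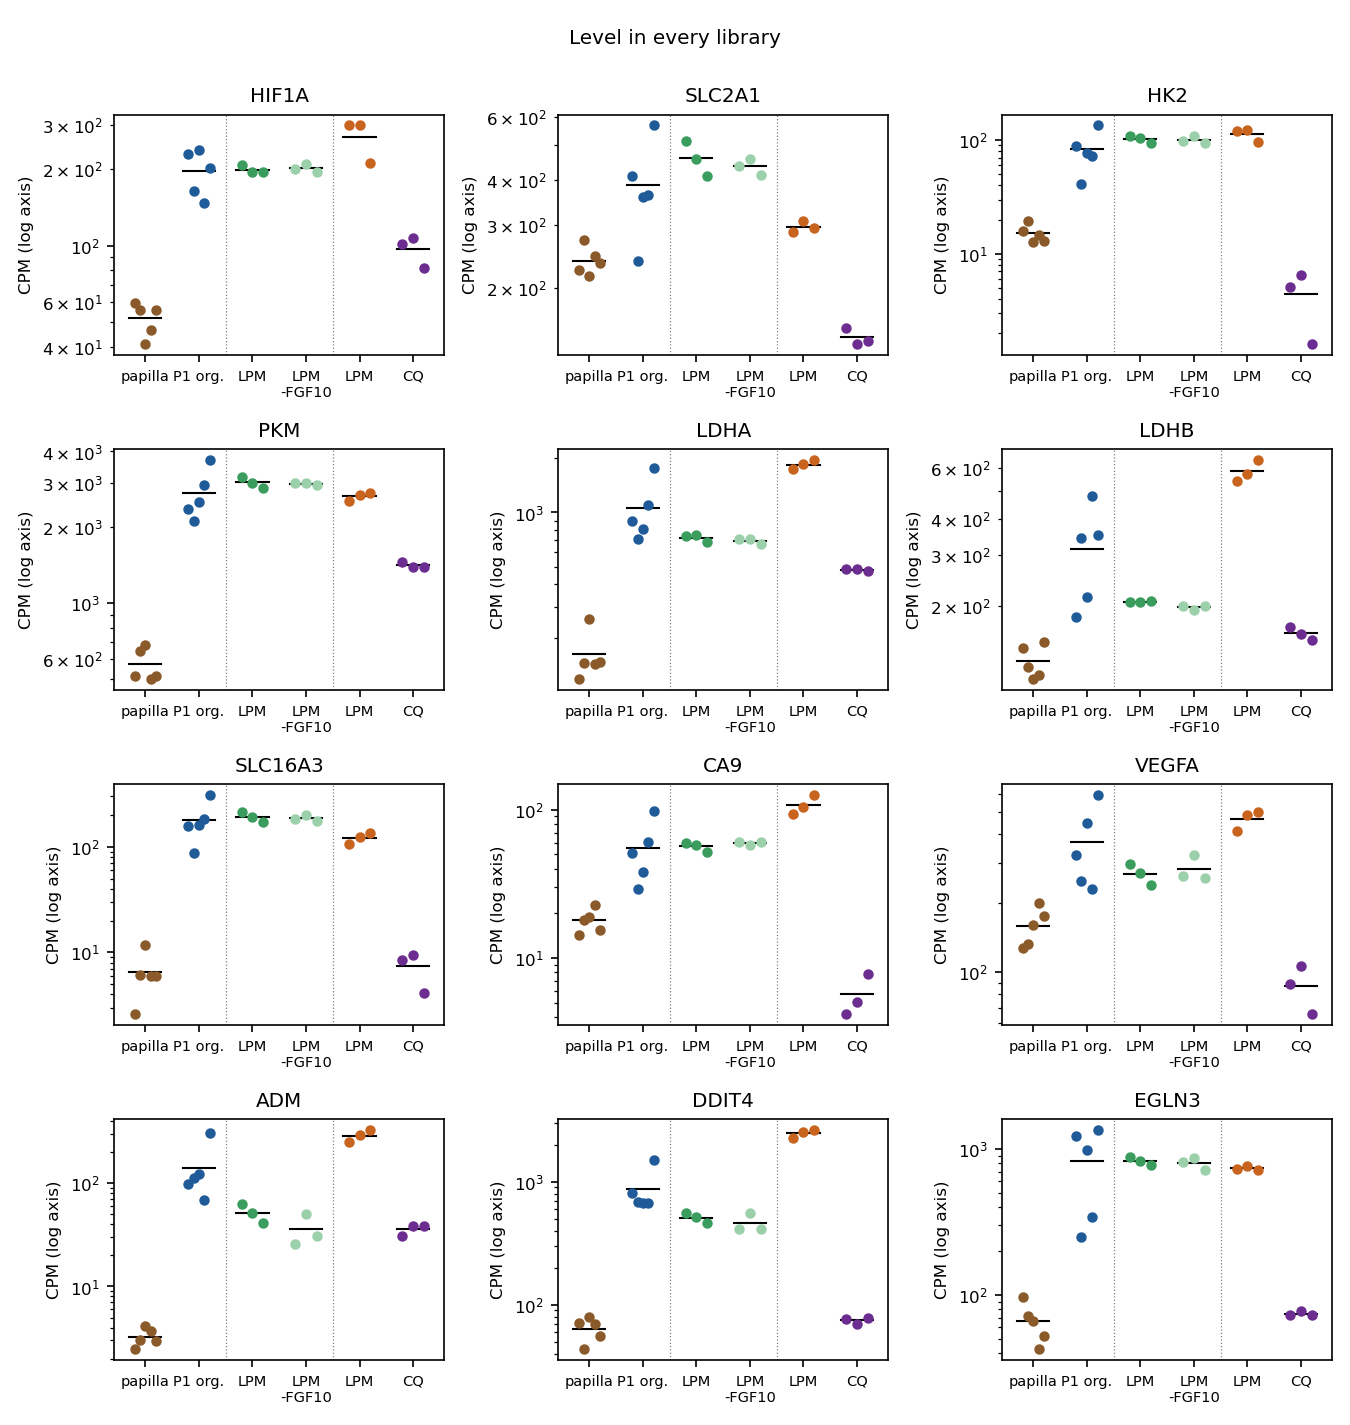
CPM on a log axis in every library (points, in replicate order) with the group mean (line) for 12 genes; dotted lines separate the 3 experiments, which were scaled separately. HK2, SLC16A3, ADM, DDIT4 and EGLN3 are low in papillae, and all of these but ADM lie near or below the papilla level in CQ.

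The organoid libraries were uneven. Those of pig 5 were the highest of the 5 for 32 of the 40 genes, and those of pig 2 the lowest for 26. Relative to the median of the 5 libraries, the 40 genes had a median log2 deviation of 0.72 in the organoids of pig 5 and -0.49 in those of pig 2, and between -0.05 and 0.00 in the others. In papillae the medians lay between -0.01 and 0.04. The median coefficient of variation over the set was 39.5% among organoids and 17.6% among papillae. Without the organoids of pig 5, 33 of the 40 genes were called higher, and without the papilla of pig 3, 35 were.

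**Figure D3:**
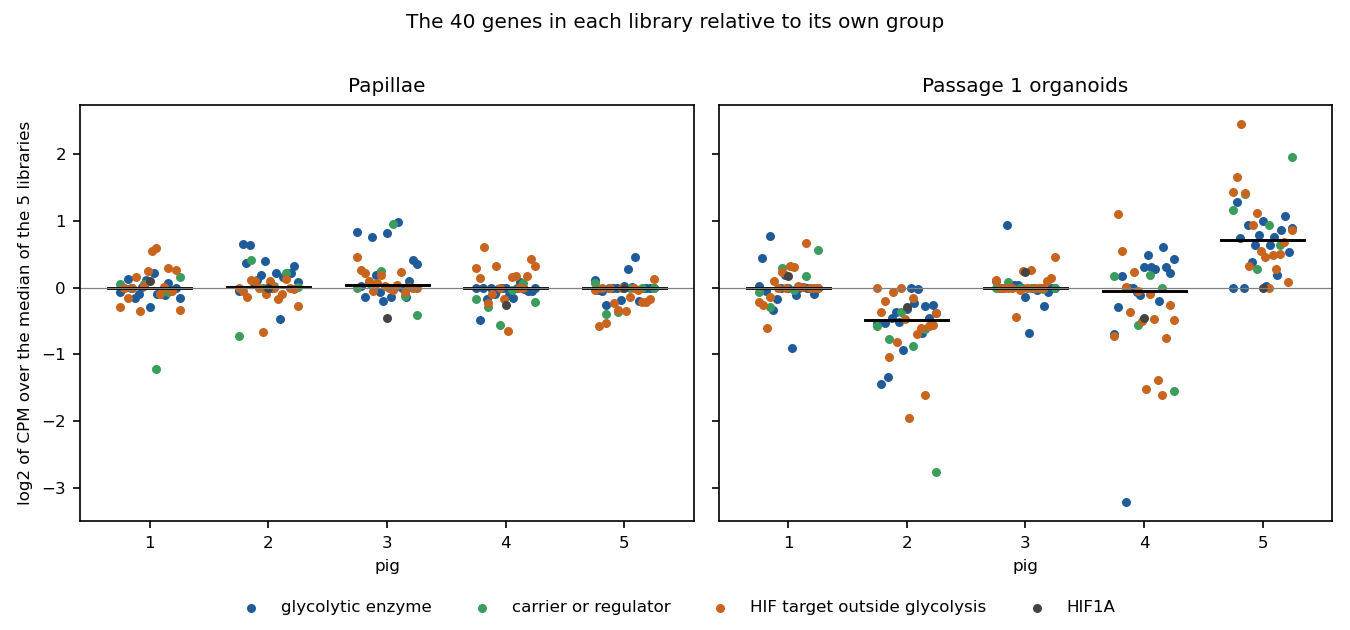
Log2 of CPM over the median of the 5 libraries of the group, for the 40 genes (points, coloured by class) in each papilla (left) and each passage 1 organoid library (right); black lines are medians over the 40 genes. The organoids of pig 5 have a median of 0.72 and those of pig 2 of -0.49.

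The pathway's other genes gave a mixed picture in this comparison. Of 35 further glycolysis and pyruvate genes, 30 were tested, 8 were called higher and 12 lower, with a median log2 change of -0.12. Phosphoglucomutase PGM1 rose 2.55-fold, the pyruvate dehydrogenase kinase PDK3 2.05-fold and the glycogen branching enzyme GBE1 3.70-fold. The muscle mutase PGAM2 fell from 48.3 ± 45.9 to 0.335 ± 0.211 CPM, and GAPDHS and the leukocyte hexokinase HK3 fell by 2.02 and 2.42 on the log2 scale. Of 10 oxygen-sensing genes 4 were called higher, among them ELOC, HIF1AN and VHL at 1.73-fold, 1.45-fold and 1.44-fold, and 1 was lower, the HIF partner ARNT2 (log2 -4.22). Of 27 further HIF targets tested, 16 were called higher and 5 lower (median 1.05). The adenylate kinase AK4 rose 7.62-fold, the lipoprotein receptor VLDLR 3.24-fold and the repressor BHLHE40 4.46-fold, whereas CITED2, PPFIA4 and LOX fell by 1.94, 2.66 and 3.02 on the log2 scale.

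The organoids finished in CQ showed the opposite direction for the set. Relative to LPM, 39 of the 40 genes were called lower and 0 higher (0 higher also at an unadjusted p under 0.05, with DESeq2 and with limma-voom), with 32 at 2-fold or more below LPM, while 24.8% of all 13827 genes tested were called lower and 23.1% higher. For 39 genes the 3 CQ libraries did not overlap the 3 LPM libraries, as was so for 61.1% of all genes tested. The median log2 change was -1.58 over the set and -0.07 over all genes tested. The class medians were further apart than in the first comparison: the median was -2.47 for the 16 HIF targets outside glycolysis, -1.27 for the 6 carriers and regulators and -1.17 for the 17 enzymes, and 14 of 16 targets against 12 of 17 enzymes fell by at least 2-fold. The difference between classes is a description and was not tested. CQ libraries were shallower, and the part of depth in these falls was not tested.

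HIF1A was at 298, 297 and 211 CPM in the LPM libraries and 101, 108 and 81.5 CPM in the CQ libraries. All CQ values were below all LPM values (log2 -1.47 ± 0.16, adjusted p = 0.000115). EGLN3 fell from 739 ± 27.6 to 74.6 ± 3.23 CPM (SD, n = 3 each; log2 -3.31) and EGLN1 from 99.3 ± 5.74 to 64.6 ± 5.41 CPM (log2 -0.62).

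Of the transporters, SLC2A1 was at 287, 307 and 295 CPM in LPM and 156, 139.5 and 143 CPM in CQ, 2.03-fold lower without overlap (adjusted p = 3.94e-05). SLC2A3 was at 24.3, 26.6 and 18.4 CPM in LPM and had 9 counts (0.549 CPM) in 1 CQ library and 0 counts in the others. The fitted log2 change of -6.88 (adjusted p = 7.49e-05) rests on those 9 counts. Without that library no CQ count was left, and the fitted value of -11.79 then depends on the prior count. HK2 was at 122, 124 and 96.2 CPM in LPM and 5.11, 6.53 and 1.58 CPM in CQ, 25.8-fold lower (log2 -4.69 ± 0.39, adjusted p = 1.95e-05), the largest fall among the enzymes. HK1 fell by 0.83 on the log2 scale.

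PKM was at 2552, 2694 and 2744 CPM in LPM and 1454, 1397 and 1397 CPM in CQ, a 1.88-fold difference (adjusted p = 2.44e-05). LDHA was at 1733, 1847 and 1948 CPM in LPM and 485, 488 and 470.5 CPM in CQ (3.83-fold, adjusted p = 6.45e-07), and LDHB at 538, 572 and 636 and 170.3, 161 and 154 CPM (3.60-fold, adjusted p = 2.03e-06). For each of these 3 enzymes the groups were far apart and replicates close together. The exporter SLC16A3 fell from 122 ± 15.3 to 7.35 ± 2.86 CPM (16.6-fold), PDK1 2.28-fold, PFKFB4 2.54-fold and PFKFB3 1.55-fold.

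Among the remaining enzymes GAPDH fell from 7785 ± 516 to 1769 ± 134 CPM (4.40-fold) and PGK1 from 1313 ± 178 to 381 ± 4.14 CPM (3.44-fold). The brain-type forms ALDOC and ENO2 fell 6.07-fold and 9.08-fold, against 1.61-fold for ALDOA and 2.25-fold for ENO1. GPI fell 2.83-fold, PFKL, PFKM and PFKP each close to 2-fold (2.06, 2.00 and 2.01), and PGAM1 1.72-fold. TPI1 was the only member not called, at 398, 436 and 556 CPM in LPM and 424, 386 and 404 CPM in CQ, with overlapping groups (log2 -0.20, adjusted p = 0.248).

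Among the 16 HIF targets of the set, DDIT4 and CA9 fell most. DDIT4 (chr14:75117708-75119907) was at 2261, 2504 and 2620 CPM in LPM and 76.4, 70.2 and 78.0 CPM in CQ, 32.9-fold lower (log2 -5.04 ± 0.11, adjusted p = 4.73e-08). CA9 was at 93.8, 104 and 125 CPM in LPM and 4.17, 5.07 and 7.77 CPM in CQ, 19-fold lower (adjusted p = 2.15e-06). ADM was at 252, 293 and 329 CPM in LPM and 30.7, 38.7 and 38.8 CPM in CQ (8.07-fold, adjusted p = 1.06e-06). VEGFA was at 414, 484 and 499.8 CPM in LPM and 88.8, 106 and 65.5 CPM in CQ (5.37-fold, adjusted p = 8.97e-06). In all 4 genes the highest CQ library lay below the lowest LPM library.

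NDRG1 and BNIP3 fell 11.8-fold and 11-fold, ANKRD37 6.67-fold, P4HA1 5.71-fold, BNIP3L 4.10-fold and MXI1 3.15-fold. ANGPTL4, P4HA2 and HILPDA fell 2.24-fold, 2.22-fold and 2.05-fold. KDM3A had the smallest fall that was called, from 126 ± 17.9 to 96.2 ± 6.40 CPM (log2 -0.39, adjusted p = 0.0362), and it was not called when libraries were scaled by their total alone, with sample numbers as a block, or without any of 4 of the 6 libraries.

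Other genes of the pathway did not all follow the set in CQ. Of 25 further glycolysis and pyruvate genes tested, 8 were called higher and 5 lower (median log2 0.08). PFKFB2, another regulator of phosphofructokinase, rose from 40.02 ± 2.43 to 144 ± 14.6 CPM (3.60-fold), SLC16A1 (MCT1), a monocarboxylate carrier, 3.52-fold, and TIGAR, a fructose bisphosphatase, 4.45-fold. GBE1, PGM1 and PDK3 fell 2.23-fold, 2.16-fold and 2.97-fold. Of 9 oxygen-sensing genes tested, the hydroxylase EGLN2 and VHL were called higher (1.53-fold and 1.65-fold), and HIF3A and ELOC lower (log2 -2.69 and -0.51). Of 26 further HIF targets tested, 20 were called lower and 4 higher (median -1.54). The carbonic anhydrase CA12 fell 36.0-fold, IGFBP3, a binding protein for insulin-like growth factors, 21.1-fold and the glycogen-targeting subunit PPP1R3C 8.30-fold. CITED2, which competes with HIF-α for its coactivator, JMJD6 and the transferrin receptor TFRC rose 4.69-fold, 4.23-fold and 4.25-fold. Epithelial markers went different ways in CQ: EPCAM fell 2.02-fold (adjusted p = 5.33e-05), KRT8 rose 1.61-fold, and CDH1 and KRT5 were not called (log2 -0.03 and 0.20), with sums of 4450 to 5100 CPM in LPM and 5250 to 5700 CPM in CQ. Summed markers of endothelium and pericytes were 12.0 to 17.7 CPM in LPM and 1.53 to 3.35 CPM in CQ. KDR and PECAM1 made up nearly all of the LPM sum (9.17 ± 2.49 and 5.52 ± 0.419 CPM) and were called lower in CQ (0 and 0.564 CPM). The other markers had means of at most 0.362 CPM in LPM. VWF and CLDN5 had higher means in CQ (0.680 and 1.21 CPM) but did not pass the filter. The part of all these markers in the result was not tested.

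Leaving out FGF10 changed the set little. Relative to LPM, 0 of the 40 genes were called higher without FGF10 and 1 lower, beside 0.582% and 1.2% of all 14262 genes tested, so the share called was close to the background. The median log2 change was -0.03, the range -0.52 to 0.10, and 3 genes had groups that did not overlap (PFKM, LDHB and ANGPTL4), against 16.6% of all genes tested. ANGPTL4, called lower, was at 50.1, 42.0 and 38.1 CPM in LPM and 36.7, 37.0 and 33.6 CPM without FGF10. The groups did not overlap, and their nearest libraries were at 38.1 and 37.0 CPM (log2 -0.28 ± 0.07, adjusted p = 0.0454), and the call was lost with DESeq2 (0.079), limma-voom (0.0635), scaling by library total (0.0616) and without any of 4 of the 6 libraries (0.105 to 0.327). At an unadjusted p under 0.05, 0 of the 40 genes were higher and 3 were lower (ALDOA, ADM and ANGPTL4) in edgeR, as against 11.8% of all genes tested in either direction. At an adjusted p under 0.05, DESeq2 and limma-voom called 0 of the 40.

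ADM had the largest change without FGF10, at 63.6, 51.2 and 40.9 CPM in LPM and 26.0, 50.7 and 31.1 CPM without it. The groups overlapped and the gene was not called (log2 -0.52 ± 0.15, adjusted p = 0.0721). It was called with replicate numbers as a block (0.0331), without LPM replicate 3 (log2 -0.66, 0.0127) and without replicate 2 of the medium lacking FGF10 (log2 -0.87, 5.3e-06). With no filter beyond 1 count the adjusted p was 6.8e-18 at nearly the same log2 change (-0.524). The reason for so small a value was not tested, and it should not be read as a firmer result. HIF1A was at 208, 196 and 194 CPM in LPM and 200, 209 and 195 CPM without FGF10. SLC2A1 was at 514, 457 and 412 and 439, 458 and 413 CPM, and HK2 at 109.5, 106 and 94.0 and 98, 109.6 and 95.5 CPM. None of these 3 was called, and their groups overlapped.

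PKM was at 3176, 3002 and 2869 CPM in LPM and 2993, 3010 and 2943 CPM without FGF10. LDHA was at 736, 752 and 689 and 714, 710.1 and 667 CPM and LDHB at 206, 207 and 208 and 200.3, 194 and 201 CPM. For PKM and LDHA the group means differed by less than the SD among LPM replicates, whereas the LDHB libraries did not overlap but were not called (log2 -0.06 ± 0.04, adjusted p = 0.529). CA9 was at 59.8, 58.0 and 52.0 and 60.5, 58.0 and 60.6 CPM and VEGFA at 296, 271 and 241 and 262, 324 and 259 CPM, with overlap in both. Among the other genes of the pathway, 0 of 27 glycolysis and pyruvate genes and 0 of 9 oxygen-sensing genes were called.

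Isozyme shares, computed within a library from counts per kilobase of gene length, do not depend on scaling between libraries. The denominators were HK1+HK2, PFKL+PFKM+PFKP, ALDOA+ALDOC, ENO1+ENO2, LDHA+LDHB and SLC2A1+SLC2A3, and family names stand for these sums. Other family members were left out, some of them above the numerator. In papillae HK3 was at 21.5 CPM beside 15.1 for HK2, ENO3 at 143 beside 11.8 for ENO2, and SLC2A4 at 16.0 beside 9.16 for SLC2A3. HK2 made up 11.9, 12.7, 10.3, 11.3 and 9.98% of HK1 plus HK2 in papillae of pigs 1 to 5 and 26.2, 18.8, 23.1, 22.9 and 25.5% in organoids, without overlap (11.2% ± 1.13 against 23.3% ± 2.91, SD; exact two-sided permutation p = 0.00794, adjusted over 6 shares 0.0476). LDHA made up 29.3, 37.0, 53.6, 38.6 and 33.0% of LDHA plus LDHB in papillae and 70.9, 51.1, 65.3, 53.6 and 71.8% in organoids. The papilla of pig 3 lay within the range of the organoids (exact permutation p = 0.0159, adjusted 0.0476). Both calls treat the libraries as unpaired: with the pigs paired, an exact sign-flip permutation test gave an adjusted p of 0.188 for each, its smallest p with 5 pairs being 0.0625. Without any of 8 of the 10 libraries the adjusted exact permutation p was 0.0952. With a library left out, a share without overlap cannot fall below that adjusted value on its own, so the lost call does not show a weaker difference. Shares of PFKP among the phosphofructokinases, ALDOC among the aldolases, ENO2 among the enolases and SLC2A3 among the transporters did not pass (adjusted exact permutation p of 0.159 to 0.881).

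In CQ the inducible and brain-type forms took smaller shares than in LPM, in a design of 3 against 3 that cannot go below an exact permutation p of 0.1. HK2 was 32.9, 33.2 and 28.9% of the hexokinases in LPM and 3.19, 4.65 and 1.26% in CQ. ALDOC was 9.97, 10.0 and 10.8% of the aldolases in LPM and 2.87, 3.12 and 2.86% in CQ. ENO2 was 0.549, 0.722 and 0.594% of the enolases in LPM and 0.0373, 0.217 and 0.226% in CQ, and SLC2A3 4.46, 4.56 and 3.33% of the transporters in LPM and 0, 0.217 and 0% in CQ. None of these 4 shares overlapped between the groups, each at the smallest p the design allows (adjusted 0.15). As shares of raw counts, without division by length, the difference in HK2 was -26.0 points in place of -28.6. That in ALDOC was -3.11 in place of -7.32, and that in SLC2A3 -7.08 in place of -4.04. LDHA, in contrast, was 62.0, 62.0 and 60.8% of the lactate dehydrogenases in LPM and 59.0, 60.5 and 60.8% in CQ, and PFKP was 59.9% ± 1.52 and 60.5% ± 2.91 of the phosphofructokinases. The groups overlapped for PFKP and met at 60.8% for LDHA. Without FGF10, HK2 was 26.9% ± 0.709 against 26.7% ± 0.943 and LDHA 63.8% ± 1.14 against 63.7% ± 1.18, and none of the 6 shares passed (adjusted exact permutation p = 0.8).

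**Figure D4:**
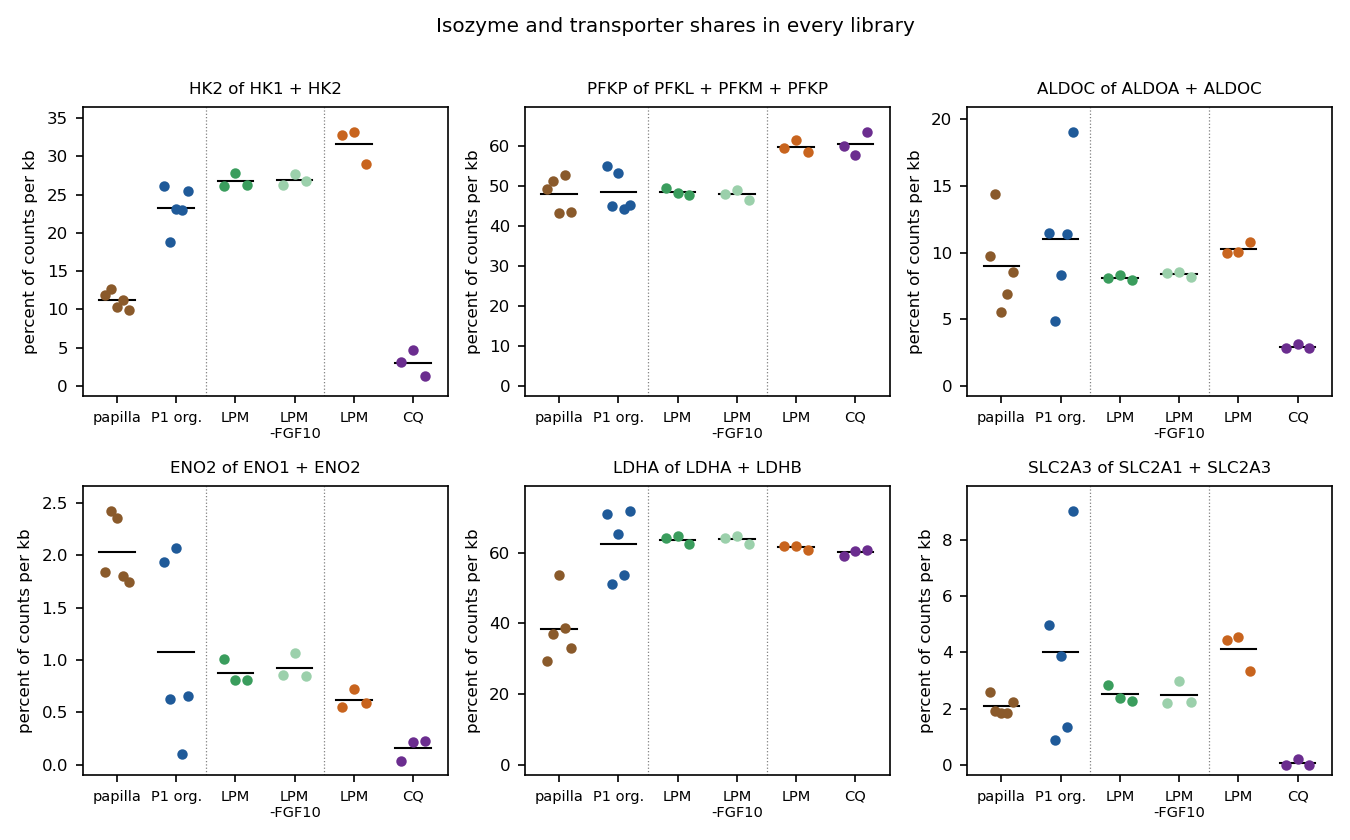
Share of one form in the sum named above each panel, in percent of counts per kilobase, in every library (points) with the group mean (line). Other members of the enzyme or transporter family are not in the sum. Dotted lines separate the 3 experiments. HK2 takes 9.98 to 12.7% of HK1 plus HK2 in papillae, 18.8 to 26.2% in passage 1 organoids and 1.26 to 4.65% in CQ.

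Across the 6 groups, which were scaled separately in each experiment, the mean level was lowest in papillae for 24 of the 40 genes and lowest in CQ for the other 16. It was highest in the LPM libraries beside CQ for 20 genes and in papillae for 1, PFKM. Per kilobase of gene length, GAPDH and ENO1 were the most abundant of the set in papillae (242 and 241 CPM per kb) and also led in passage 1 organoids (855 and 956), where BNIP3 came next at 814. In the LPM libraries beside CQ, DDIT4 stood between them at 1375 CPM per kb, and in CQ at 41.8. HIF1A ran from 51.6 CPM in papillae through 96.8 in CQ to 196, 199 and 201 in passage 1, LPM and LPM without FGF10, and 269 in the LPM libraries beside CQ. The 3 groups in the middle of that order differed by less than the spread among passage 1 organoids.

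The comparisons of papillae with organoids and of LPM with CQ share no library. Of the 40 genes, 35 were called higher in passage 1 organoids than in papillae and lower in CQ than in LPM (87.5%), against 12.6% of the 13439 genes tested in both. Over the 40 genes the log2 changes of the 2 comparisons had a Pearson r of -0.47 and a Spearman rho of -0.44, and over the 13439 genes -0.12 and -0.14. Within classes r was -0.64 (rho -0.70) for the 16 HIF targets outside glycolysis and -0.22 (rho -0.22) for the 17 enzymes. These are descriptions across genes of the same libraries, which are not independent replicates.

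A read pair was counted for every gene it overlapped and without regard to strand, so reads from shared bases count for both genes. Exons of PFKM share 5% of their bases with SENP1, GAPDH 6.7% with LOC110260753 and 3.3% with IFFO1, ANKRD37 7.5% with UFSP2, HILPDA 12.6% with FAM71F2, and ALDOA and P4HA2 under 2% with a neighbour. In the CQ experiment the chromosome 2 locus of LDHB shares 100% of its bases with LOC407246, which had 1052 counts against 45475 for the LDHB row. Multi-mapping read pairs stayed uncounted, and what this took from each gene was not measured.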

How the data were processed

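RNA of 22 libraries was selected with poly-T beads, per the labels' protocols. Alignment with STAR 2.7.10b is named in the submitters' processing notes, as are DESeq2 and the quality tools FastQC 0.11.9 and MultiQC 1.14. What the authors deposited are raw gene counts, 1 file per library. Per the file headers these counts come from featureCounts, version 2.0.3 for 16 libraries and version 2.0.6, with another annotation, for the 6 of the CQ experiment. Counting ignored strand, assigned a pair to every gene it overlapped and skipped multi-mapping pairs, per the file headers. In the CQ experiment 1 unnamed entry (0.326 to 0.477% of counts) was left out. Coordinates are those of Sscrofa11.1.

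Each comparison was fitted on its own 2 groups with edgeR 4.0.16 in R 4.3.3 (TMM, filterByExpr, quasi-likelihood F test, Benjamini-Hochberg over all genes tested, called at an adjusted p under 0.05). The standard errors (SE) given are approximate: the size of the log2 change divided by the square root of the F statistic. The fits were tested on simulated counts, and the exact tests on fixed values with known answers. Shares were compared by an exact two-sided permutation test over libraries, adjusted over the 6 shares of a comparison. Alternatives were another scaling or filter, DESeq2 1.42.0, limma 3.58.1 voom, a replicate block and leaving out each library; 2 more, a quality weight per group for CQ and the chromosome 2 row of LDHB, were chosen after seeing the data. The 40 genes, their classes, the other gene lists and the rule for named genes were chosen with earlier results of these data known. That rule gives every library's value for HIF1A, SLC2A1, HK2, PKM, LDHA, LDHB, CA9, VEGFA and ADM, for the 4 called genes with the largest rise and the 4 with the largest fall, and for other genes a mean or fold. PFKM, ANKRD37 and TPI1 were added because they were not called. Genes outside the set beyond the smallest p-values, called or not, were added for context.

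Papillae and passage 1 organoids share pig numbers in the labels, so these are paired, and same-numbered libraries deviated together only weakly (correlations of 0.032 to 0.092). No 2 libraries were identical, and all pairs of replicates differed by more than sampling noise (chi-square per degree of freedom 2.56 or more). Gene lengths agreed in both annotations for 39 of the 40 genes, LDHB being the exception. No protein, promoter or genome sequence was used here. The further HIF targets in the FGF10 comparison are not reported here.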

Additional observations from a re-analysis of the deposited data

Results flagged for a closer look

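In the groups of 5 libraries, 92 sets of values (40 genes and 6 shares in papillae and in passage 1 organoids) were searched for a library far from the rest by Dixon's test, and 11 were flagged; chance flags about 1 in 20, and the genes are not independent of each other. The organoids of pig 5 were far above the other 4 organoid libraries for 7 genes. ANKRD37 was at 52.0 CPM there against 6.23 to 13.8 CPM in the others, DDIT4 at 1493 against 664 to 811 CPM, and PFKFB3 at 219 against 48.4 to 87.3 CPM. ADM was at 308 against 68.7 to 124 CPM, BNIP3 at 2634 against 475 to 992 CPM, GAPDH at 7064 against 2697 to 3808 CPM, and PDK1 at 166 against 49.9 to 83.3 CPM. The papilla of pig 3 was far above the other papillae for ALDOA, at 1188 against 638 to 719 CPM, for GAPDH, at 1715 against 911 to 1066 CPM, and for LDHA, at 258 against 118 to 148 CPM. It also had the highest summed skeletal muscle markers (9680 CPM); their part in these values was not tested. The papilla of pig 2 was above the others for HK1, at 154 against 129 to 136 CPM.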

How the results depend on the processing

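Against papillae, 33 to 38 of the 40 genes were called higher in passage 1 organoids under every alternative run, against 36 as reported, and none was called lower; with the pigs as a replicate block it was 34, SLC2A3 and ANGPTL4 being lost. In CQ, 38 or 39 genes were called lower under every alternative run, 38 with the replicate block, where KDM3A was lost. Without FGF10 the 1 gene called lower became 0 with library totals alone, DESeq2 or limma-voom, 4 with no filter beyond 1 count, 2 with the replicate block and 0 to 4 with single libraries left out; the cause was not tested. All genes called there were 254, 429 with no filter and 125 to 294 with single libraries left out. The labels do not say whether replicate numbers mark a shared animal in the FGF10 and CQ experiments, and same-numbered libraries correlated at -0.062 to 0.078 and -0.029 to 0.034. Log2 changes without FGF10 that were near 0 changed sign with single libraries left out: HIF1A -0.013 to 0.047, SLC2A1 -0.154 to 0.007, HK2 -0.094 to 0.017, PKM -0.051 to 0.023 (0.001 with library totals alone) and VEGFA -0.049 to 0.139. Of the shares in papillae and organoids, 2 passed as reported, 0 with the paired sign-flip test, whose smallest p with 5 pairs is 0.0625, and 0 to 2 with single libraries left out, which also raises the smallest p of the exact permutation test. In points, the difference in the PFKP share then ran -1.11 to 1.66 and that of ALDOC -0.0186 to 3.53. SLC2A3 had 9 counts over the CQ libraries, which leaves its fold imprecise, and with 3 libraries a group no exact test of a share can pass.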
